A study of Homo sapiens with 8 samples.

Results

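The nuclear-encoded subunits of the mitochondrial respiratory chain were followed by complex in human esophageal epithelial cells with and without a hairpin against HIF1A. Members were picked by gene name from the deposited expression table: NDUFA, NDUFB, NDUFC, NDUFS or NDUFV followed by a digit for complex I, the SDHA to SDHD genes for complex II, UQCR names and CYC1 for complex III, COX4 to COX8 names for complex IV, and ATP5 names for complex V. After antisense genes, read-through genes, pseudogenes and non-structural factors (8 names) were removed, 85 of 25369 genes remained, with 38 in complex I, 4 in complex II, 10 in complex III, 17 in complex IV and 16 in complex V. A gene was tested when it reached at least 0.5 RPKM (reads scaled to the length of the gene and the total reads of the library) in at least 4 libraries, and 78 members did: 38, 4, 9, 12 and 15 from complex I to V. The untested 7 were UQCRHL, COX4I2, COX6A2, COX7A1, COX7B2, COX8C and ATP5L2. Mitochondrially encoded subunits were not analysed here.

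Complexes I to IV pass electrons from NADH and succinate to oxygen, and complexes I, III and IV pump protons across the inner mitochondrial membrane while they do so. Complex V, the ATP synthase, lets the protons flow back through a rotor ring and uses the rotation to make ATP. Complex II is wholly nuclear-encoded, while the other complexes combine nuclear and mitochondrial subunits, and each is assembled in fixed proportions. HIF1A encodes the oxygen-regulated subunit of a transcription factor that, in low oxygen, is known to raise glycolytic genes and to change a few respiratory chain isoforms, among them NDUFA4L2 and COX4I2.

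The cells were EPC2-hTERT, a human esophageal keratinocyte line immortalised with telomerase, carrying a lentiviral control hairpin (shCtrl, 4 libraries) or a hairpin against HIF1A (HIF1A-KD, 4 libraries), and all came from this 1 line. Both groups were grown on membranes with 0.4 µm pores, for 2 days to confluence, 5 days in medium with 1.8 mM calcium and 4 days with the upper surface in air. The protocol also speaks of treatment with DMSO vehicle or dimethyloxalylglycine, a drug that stabilises HIF proteins, but no sample's labels assign either. The design asks which genes differ between control and HIF1A-depleted cells in this stratifying culture. The labels do not say whether numbered libraries came from separate cultures, so p-values measure the spread between these libraries, which may be technical.

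HIF1A itself was at 95.2, 51.4, 89.8 and 122 RPKM in shCtrl 1 to 4 and at 27.6, 19.0, 54.8 and 45.0 in HIF1A-KD 1 to 4. It was lower in HIF1A-KD in 4 of 4 same-numbered pairs, the groups overlapped between shCtrl 2 and HIF1A-KD 3, and the log2 change of -1.34 had a Benjamini-Hochberg adjusted p of 0.319 in limma without a replicate block and 0.0253 with one. Depth implied by the tables ran from 38068729 to 65326907 reads per library. All 7 squamous epithelial markers were expressed, with a summed level of 8434 to 12536 RPKM in shCtrl and 12231 to 13505 in HIF1A-KD. KRT4 was at 188 to 729 RPKM in shCtrl and 1194 to 1984 in HIF1A-KD, without overlap, beside 3.27% of all tested genes in that direction. The ranges of all other squamous markers overlapped, so the sum does not show that the squamous state of the groups was alike. Of 18 markers of other cell types, PTPRC, CD3E, MLANA and TYR were listed at 0 in every library and COL1A1, CD68, CD14, VWF and PMEL reached the level for testing. In shCtrl and HIF1A-KD the summed levels were 21.2 to 27.7 and 14.1 to 19.2 RPKM for fibroblast markers, nearly all COL1A1, 33.5 to 117 and 25.1 to 87.0 for leukocyte markers, mostly CD68, 0.748 to 15.4 and 1.39 to 12.8 for endothelial markers and 0.342 to 0.900 and 0.260 to 1.95 for melanocyte markers. The part of other cell types in the results was not tested, and in such bulk RNA fewer cells of a type and less RNA per cell cannot be told apart. Libraries numbered 1 and 2 stood apart from those numbered 3 and 4 in both groups, along a first principal component holding 41.9% of the variance. The labels do not say what this split is.

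Across all 5 complexes the subunit transcripts differed little between the groups. The median log2 change (HIF1A-KD minus shCtrl, on the log2(RPKM + 0.1) scale used for all fitted changes) was 0.16 in complex I, 0.08 in complex II, 0.19 in complex III, 0.09 in complex IV and 0.14 in complex V, beside 0.06 over all 11899 tested genes. Estimates were above 0 for 65 of 78 members, beside 58.7% of all tested genes: 33 of 38 in complex I, 3 of 4 in complex II, 7 of 9 in complex III, 11 of 12 in complex IV and 11 of 15 in complex V. With median-of-ratios scaling in place of the authors' scaling to total reads, 55 of 78 members were above 0, beside 49.0% of all tested genes, and the medians of complexes I to V became 0.09, 0.01, 0.12, 0.02 and 0.07. No complex changed direction with that scaling.

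No member passed the threshold of 0.05 in limma without a block (Benjamini-Hochberg adjustment over all tested genes), where 0.0420% of all tested genes did, and none passed in limma-voom on recovered reads (0.0254% of the genes in that fit) or with the library split as a term (0.857%). At an unadjusted p under 0.05 there were 4 members, NDUFV2, ATP5D, ATP5G1 and ATP5H, beside 7.80% of all tested genes. With the library number as a block, 1 member passed, ATP5H, beside 1.83% of all tested genes. It passed as higher in HIF1A-KD, as 0.740% of all tested genes did, and no member passed as lower, beside 1.09%. With the block, 12 members had an unadjusted p under 0.05, beside 19.6% of all tested genes. Both counts are a smaller share of the 78 members than of all tested genes. The block takes same-numbered libraries as pairs, which the data favour for only some of the numbers.

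Within same-numbered pairs, 22 members were higher in HIF1A-KD in 4 of 4 pairs, beside 18.6% of all tested genes in that direction: 8 in complex I, 1 in complex II, 4 in complex III, 4 in complex IV and 5 in complex V. Lower in 4 of 4 pairs were 4 members, CYC1, ATP5A1, ATP5E and ATP5J2, beside 10.7% of all tested genes. The 4 HIF1A-KD libraries lay wholly above the 4 shCtrl libraries for 3 members, NDUFB5, NDUFV2 and ATP5D, beside 3.27% of all tested genes, and wholly below them for none, beside 2.13%.

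**Figure D1:**
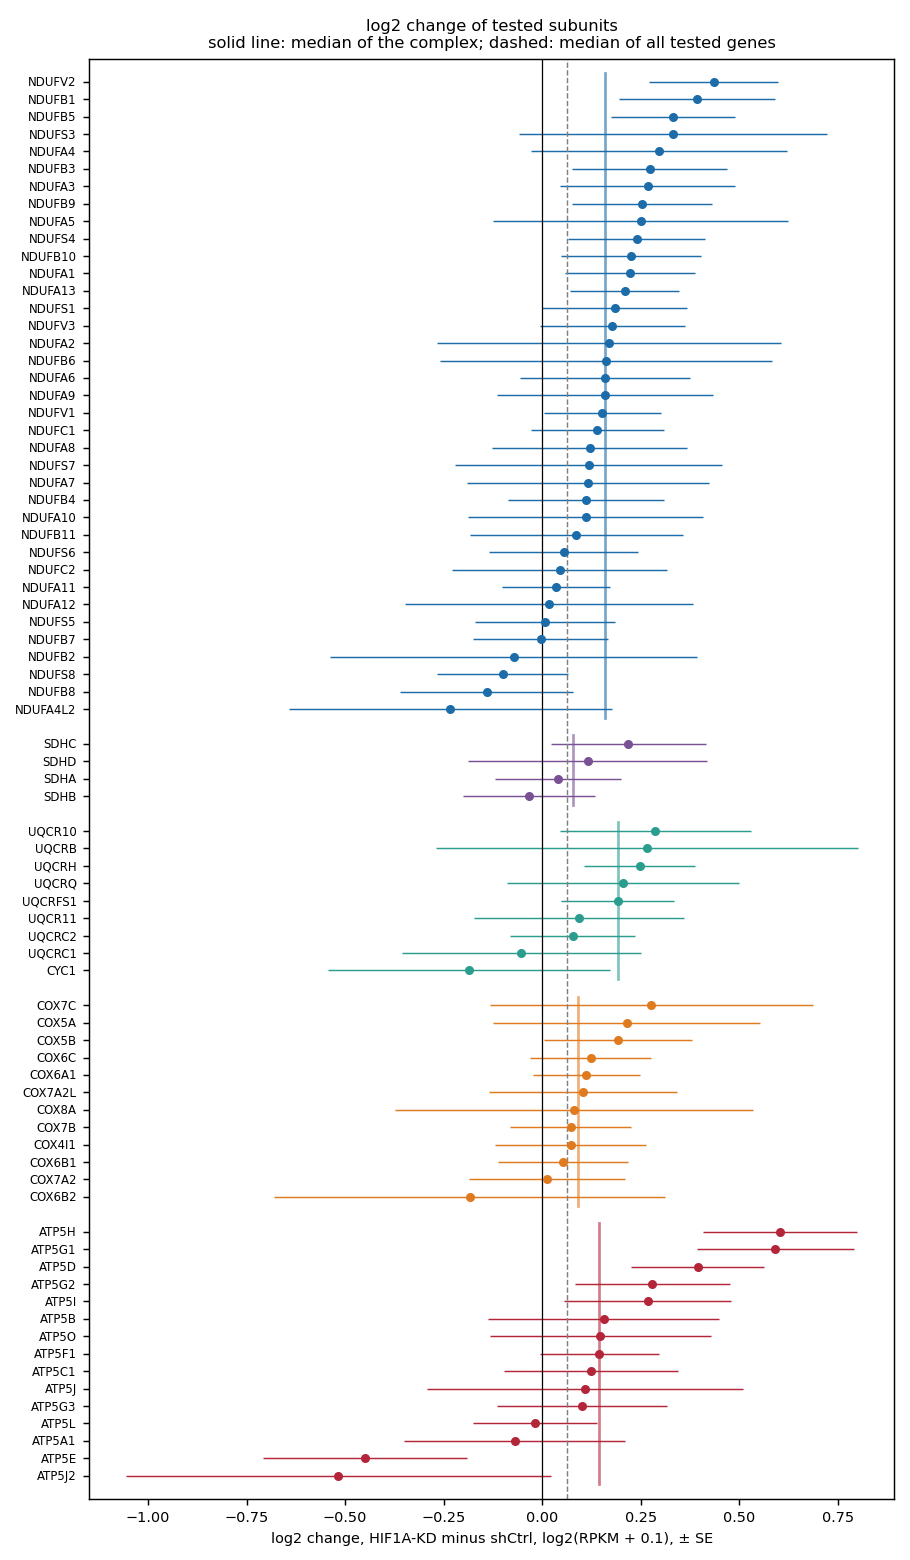
Fitted log2 change of 77 of the 78 tested subunits, HIF1A-KD minus shCtrl on the log2(RPKM + 0.1) scale, with bars of 1 standard error; rows are grouped from complex I at the top to complex V, the solid line is the median of the complex and the dashed line the median of all tested genes. Most points lie between 0 and 0.3, and complex V holds both the highest (ATP5H, 0.60) and the lowest (ATP5J2, -0.52).

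The same-numbered pairs did not contribute alike. In pair 1 the median difference was 0.33 in complex I, 0.26 in complex II, 0.26 in complex III, 0.23 in complex IV and 0.30 in complex V, while the median over all tested genes was 0.12. In pair 2 the complex medians lay between -0.02 (complex II) and 0.08, with all tested genes at 0.01. In pair 3 they lay between -0.02 (complex V) and 0.09, below the 0.15 of all tested genes, and in pair 4 between 0.09 and 0.17, above the -0.03 of all tested genes. Pair 1 therefore had the highest median in every complex, and the highest complex median in pairs 2 and 3 was 0.09, that of complex I in pair 3.

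**Figure D2:**
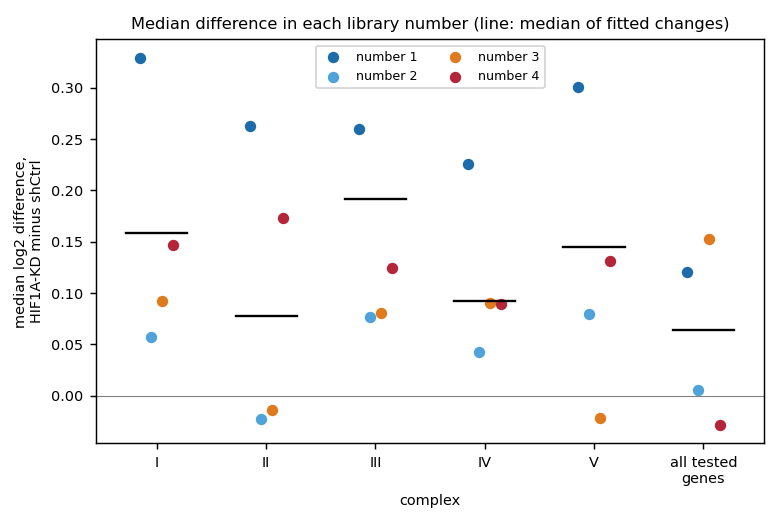
Median log2 difference of each complex within each same-numbered pair of libraries (points, HIF1A-KD minus shCtrl) and the median of the fitted changes (black line), with all tested genes at the right. The point of pair 1 is the highest in each complex, from 0.23 in complex IV to 0.33 in complex I.

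Complex I takes electrons from NADH in an arm that stands in the matrix and pumps protons in an arm that lies in the membrane. Its members ranged from a mean over all libraries of 4.28 RPKM (NDUFA5) to 213 RPKM (NDUFA13), and their summed level was 1581, 1985, 1803 and 1846 RPKM in shCtrl 1 to 4 and 1981, 2046, 1988 and 1924 in HIF1A-KD 1 to 4. The sum was lowest in shCtrl 1, and the groups overlapped only at shCtrl 2. Means were 1804 ± 167 and 1985 ± 49.9 RPKM (SD, n = 4 each).

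NDUFV2, an iron-sulfur subunit beside the NADH-oxidising site, had the highest change in the complex. It was at 32.6, 47.2, 46.2 and 39.2 RPKM in shCtrl 1 to 4 and at 52.1, 57.7, 55.7 and 55.8 in HIF1A-KD 1 to 4. Every HIF1A-KD library lay above every shCtrl library, and the log2 change was 0.44 ± 0.16 (SE), with a limma Benjamini-Hochberg adjusted p of 0.519 without a block and 0.0944 with it. NDUFB1, an accessory subunit of the membrane arm, followed at 0.39 ± 0.20, from 45.2 ± 8.34 to 59.3 ± 10.6 RPKM (SD, n = 4 each), and it was higher in 3 of 4 pairs. NDUFB5, another accessory subunit of that arm, was at 20.8, 27.4, 26.2 and 27.9 RPKM in shCtrl and at 29.9, 29.8, 34.5 and 34.1 in HIF1A-KD. Its groups did not overlap, and its adjusted p (limma, Benjamini-Hochberg) was 0.683 without a block and 0.157 with it.

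NDUFS1, the largest iron-sulfur subunit, went from 12.1 ± 2.40 to 13.7 ± 1.23 RPKM, and NDUFV1, which binds the flavin that accepts electrons from NADH, from 33.1 ± 3.63 to 36.7 ± 2.86 (SD, n = 4 each), with overlapping groups for both. NDUFA13, the most abundant member and an accessory subunit, was at 181, 215, 199 and 195 RPKM in shCtrl and at 230.02, 233, 235 and 215 in HIF1A-KD. Only shCtrl 2 and HIF1A-KD 4 overlapped, and by less than 1 RPKM. By arm, 15 of 16 matrix-arm members had estimates above 0 with a median of 0.16, and 17 of 20 membrane-arm members with a median of 0.13. NDUFB8, a membrane-arm accessory subunit, was among the 5 below 0, at -0.14 ± 0.22 (SE).

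NDUFA4L2 is the paralog of NDUFA4 known as a HIF-1 target, and it had the lowest estimate in the group named for complex I. It was at 8.69, 14.2, 12.53 and 16.9 RPKM in shCtrl 1 to 4 and at 5.02, 13.4, 9.47 and 21.4 in HIF1A-KD 1 to 4. It was lower in HIF1A-KD in pairs 1, 2 and 3 and higher in pair 4, so the groups overlapped throughout, and the log2 change was -0.23 ± 0.41 (SE; adjusted p of 0.984 in limma with Benjamini-Hochberg adjustment). NDUFA4L2 lies at chr12:57628686-57634475 (hg19, minus strand) and overlaps SHMT2 on the other strand, whose mean level was 59.3 RPKM. The sources used here do not say whether reads were counted by strand, so reads of the pair may be mixed. NDUFA4, a protein first purified with complex I and later placed in complex IV, went from 30.3 ± 10.5 to 37.4 ± 13.5 RPKM and was higher in 4 of 4 pairs. Moving both genes to complex IV, an alternative chosen after seeing the data, left both complexes' medians at 0.16 and 0.09.

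Because NDUFA4L2 is a known target of HIF-1, the 250 bases before its RefSeq start (GRCh38.p14, minus strand, chr12:57240763-57241012) are shown 5′ to 3′, with letters matching the core of the hypoxia response element, ACGTG or GCGTG on either strand, in capitals.
NDUFA4L2: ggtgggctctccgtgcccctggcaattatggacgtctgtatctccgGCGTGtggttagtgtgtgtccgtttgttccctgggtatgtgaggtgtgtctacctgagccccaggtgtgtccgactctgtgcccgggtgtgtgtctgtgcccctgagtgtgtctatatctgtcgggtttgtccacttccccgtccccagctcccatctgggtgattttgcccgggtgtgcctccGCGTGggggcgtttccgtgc
The window holds 2 matches. A match is a description of the letters only, and 43.1% of 27305 promoter windows of the same length hold at least 1.

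Complex II links the citric acid cycle to the chain and has no proton pump. Its 4 members lay between 18.8 (SDHD) and 47.3 RPKM (SDHB), the narrowest range of the 5 complexes. SDHA, the flavoprotein that oxidises succinate, was at 30.0, 32.4, 33.2 and 29.4 RPKM in shCtrl 1 to 4 and 35.4, 35.9, 25.6 and 32.5 in HIF1A-KD 1 to 4. HIF1A-KD 3 was the lowest and the groups overlapped, with a log2 change of 0.04 ± 0.16 (SE) that became -0.03 with median-of-ratios scaling. SDHB, the iron-sulfur subunit, was the only member below 0 (-0.03 ± 0.17), and the membrane anchors SDHC and SDHD were at 0.22 ± 0.20 and 0.12 ± 0.30. SDHC was higher in 4 of 4 pairs. SDHA has pseudogene copies in the genome, which could share its reads. Without HIF1A-KD 1 or without HIF1A-KD 2 the complex median was -0.01.

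Complex III hands electrons from ubiquinol to cytochrome c. UQCRH, the hinge subunit, was its most abundant member, at 172, 190, 162 and 164 RPKM in shCtrl 1 to 4 and 202, 211, 190 and 213 in HIF1A-KD 1 to 4. It was higher in 4 of 4 pairs, shCtrl 2 and HIF1A-KD 3 lay within 1 RPKM of each other, and the log2 change was 0.25 ± 0.14 (SE). UQCRH has a near-identical copy, UQCRHL, which was below the level for testing and could take or give reads. UQCRFS1, the Rieske iron-sulfur protein, went from 64.1 ± 3.50 to 73.4 ± 6.73 RPKM (SD, n = 4 each) and was also higher in 4 of 4 pairs. The highest estimates were those of the small subunits UQCR10 (0.29 ± 0.24) and UQCRB (0.27 ± 0.54).

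CYC1, the heme-binding cytochrome of the complex, went the other way. It was at 72.1, 75.3, 35.8 and 37.6 RPKM in shCtrl 1 to 4 and at 66.0, 64.3, 32.8 and 31.4 in HIF1A-KD 1 to 4. It was lower in 4 of 4 pairs, but the gap between libraries 1 and 2 and libraries 3 and 4 was far wider than the gap between the groups, and the log2 change was -0.19 ± 0.36 (SE; adjusted p 0.985 without a block and 0.286 with it, limma with Benjamini-Hochberg adjustment). UQCRC1, a core subunit, was at -0.05 ± 0.30. The summed complex III level was 604 ± 57.5 RPKM in shCtrl and 664 ± 51.2 in HIF1A-KD (SD, n = 4 each).

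Complex IV reduces oxygen to water, and several of its nuclear subunits come as tissue isoforms. The isoforms of most tissues were abundant, led by COX6A1 at 283 ± 14.9 RPKM in shCtrl and 306 ± 14.5 in HIF1A-KD (SD, n = 4 each). The muscle isoform COX6A2 and the testis-type isoforms COX7B2 and COX8C were listed at 0 in all 8 libraries. COX4I2, the isoform of COX4I1 known to respond to low oxygen through HIF-1, was at 0.211 and 0.0677 RPKM in shCtrl 1 and 2, at 0.160 in HIF1A-KD 1 and listed at 0 in the other 5. COX4I1 was at 243, 285, 219 and 198 RPKM in shCtrl 1 to 4 and 295, 283, 213 and 205 in HIF1A-KD 1 to 4. Its groups overlapped fully, and COX4I2 made up at most 0.0870% of the summed level of both genes in any library.

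The other isoform families were as one-sided, apart from COX7A. COX6B2 reached 0.191% to 1.24% of the COX6B total, and COX7A1 at most 0.0208% of the COX7A total. COX7A2L, which is known to bind complexes III and IV in supercomplexes, made up 46.9%, 34.8%, 46.3% and 57% of the COX7A total in shCtrl 1 to 4 and 46.1%, 34.5%, 60.5% and 50.4% in HIF1A-KD 1 to 4. In both groups library 2 had the lowest share, and the groups overlapped. Among the core-associated subunits COX5A went from 76.8 ± 28.7 to 88.8 ± 32.1 RPKM and COX5B, which binds zinc, from 188 ± 34.2 to 213 ± 24.3, each higher in 4 of 4 pairs. COX7C had the highest estimate, 0.28 ± 0.41 (SE), and COX6B2 the lowest, -0.18 ± 0.50, from a level near 1 RPKM.

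**Figure D3:**
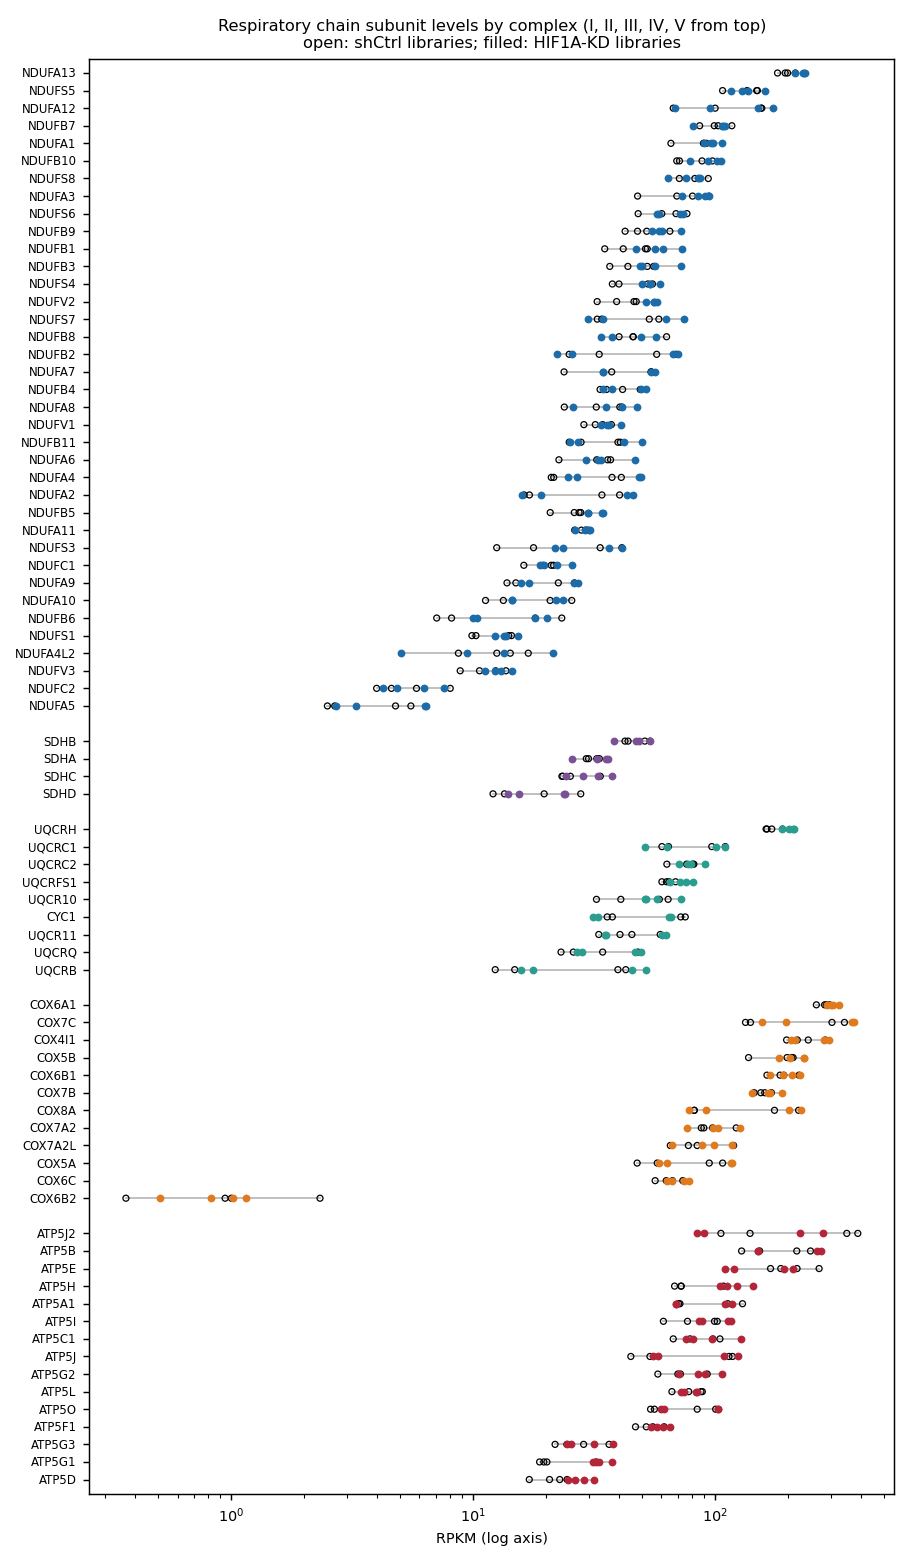
Level of 77 of the 78 tested subunits in every library, in RPKM on a log axis, with complexes I to V from top to bottom and members ordered by mean level; open circles are shCtrl libraries and filled circles HIF1A-KD libraries. Levels run from 1.02 RPKM (COX6B2, mean of all libraries) to 294 RPKM (COX6A1), and the groups overlap in every row but those of NDUFB5, NDUFV2 and ATP5D.

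Complex V was the complex whose subunits spread most in both directions. Its median change, 0.14, lay inside the range of the other complexes, but its members ran from -0.52 to 0.60, beside -0.23 to 0.44 over the 63 tested members of complexes I to IV. Of the 4 members with an unadjusted p under 0.05 without a block, 3 were among the 15 tested in complex V, and of the 12 with the block, 5 were (ATP5D, ATP5E, ATP5G1, ATP5H and ATP5J2), beside 7.80% and 19.6% of all tested genes. In the authors' deposited table, 4 of the 78 members had an adjusted p under 0.05, beside 9.02% of its 13627 genes, and all 4 were in complex V. That is a smaller share of the members than of the whole table. The difference in spread between complexes was not tested. Its summed level was 1428 ± 154 RPKM in shCtrl and 1432 ± 79.3 in HIF1A-KD (SD, n = 4 each).

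The peripheral stalk holds the catalytic head still while the rotor turns. ATP5H, now named ATP5PD, encodes its subunit d and lies at chr17:73034955-73043074 (hg19, minus strand). It was at 68.0, 108, 72.3 and 72.5 RPKM in shCtrl 1 to 4 and at 123, 143, 105 and 112.2 in HIF1A-KD 1 to 4. The 3 other shCtrl libraries lay below every HIF1A-KD library, and shCtrl 2 lay above HIF1A-KD 3. ATP5H was higher in 4 of 4 pairs, by a log2 change of 0.60 ± 0.20 (SE without the block) and 0.60 ± 0.10 (SE with it), with a limma Benjamini-Hochberg adjusted p of 0.415 without a block and 0.0460 with it. The blocked call was lost with median-of-ratios scaling (adjusted p 0.0634, limma) and without any 1 of the 4 pairs (0.186, 0.201, 0.0749 and 0.0742 without pairs 1 to 4), and over all alternatives the adjusted p lay between 0.0460 and 0.938. ATP5H in the authors' deposited table had a moderated log2 change of 0.51 and an adjusted p of 0.00185. ATP5H overlaps KCTD2 on the other strand, which had a mean of 8.50 RPKM. The other stalk subunits ATP5O, ATP5F1 and ATP5J were between 0.11 and 0.15.

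The rotor ring is built of identical copies of subunit c, a protein made from 3 genes, ATP5G1, ATP5G2 and ATP5G3, that differ in their import sequence. ATP5G1, now named ATP5MC1 (chr17:46970148-46973232, hg19, plus strand), was at 19.6, 32.2, 20.2 and 18.8 RPKM in shCtrl 1 to 4 and at 31.2, 37.6, 33.0 and 32.1 in HIF1A-KD 1 to 4. Again shCtrl 2 alone reached the HIF1A-KD range, lying above HIF1A-KD 1 and HIF1A-KD 4 and below HIF1A-KD 2 and HIF1A-KD 3. The log2 change was 0.59 ± 0.20 (SE), with a limma Benjamini-Hochberg adjusted p of 0.436 without a block and 0.0698 with it. The authors' deposited table gives ATP5G1 a moderated 0.48 on the log2 scale (adjusted p 0.0356). ATP5G2, the most abundant of the 3, was at 73.2 ± 14.4 and 88.6 ± 14.9 RPKM, and ATP5G3 at 27.8 ± 6.40 and 29.8 ± 6.22 (SD, n = 4 each).

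As a share of the summed level of the 3 genes, ATP5G1 made up 18.4%, 20%, 17.6% and 16.7% in shCtrl 1 to 4 and 20.3%, 20.6%, 23.0% and 25.2% in HIF1A-KD 1 to 4. The groups did not overlap, though shCtrl 2 and HIF1A-KD 1 lay close, and the means were 18.2% ± 1.38 and 22.3% ± 2.28 (SD, n = 4 each). The RPKM levels of ATP5G1 did overlap, the share was not tested, and no like share over all tested genes was computed to set beside it. ATP5G3 made up 22.5% ± 3.22 and 19.5% ± 1.45, and ATP5G2 59.3% ± 4.08 and 58.2% ± 1.70, with overlapping groups.

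In the catalytic head, the alpha and beta subunits ATP5A1 and ATP5B form the nucleotide sites. ATP5A1 went from 96.3 ± 29.8 to 91.2 ± 26.1 RPKM and was lower in 4 of 4 pairs by small amounts, and ATP5B from 187 ± 55.4 to 210 ± 68.1 (SD, n = 4 each), log2 changes of -0.07 and 0.16. The delta and epsilon subunits, ATP5D and ATP5E, sit together at the foot of the central shaft and went in opposite directions. ATP5D was at 17.1, 24.4, 20.7 and 22.8 RPKM in shCtrl and at 26.4, 31.5, 28.7 and 24.7 in HIF1A-KD, so that all HIF1A-KD libraries lay above all shCtrl libraries, with shCtrl 2 and HIF1A-KD 4 nearly level. Its log2 change was 0.39 ± 0.17 (SE; adjusted p 0.613 without a block and 0.138 with it, limma with Benjamini-Hochberg adjustment).

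ATP5E, now named ATP5F1E (chr20:57603733-57607422, hg19, minus strand), was at 218, 269, 187 and 170 RPKM in shCtrl 1 to 4 and at 192, 211, 119 and 110 in HIF1A-KD 1 to 4. It was lower in 4 of 4 pairs, and the groups overlapped because libraries 1 and 2 were higher than 3 and 4 in both. The log2 change was -0.45 ± 0.26 (SE), with a limma Benjamini-Hochberg adjusted p of 0.777 without a block and 0.0941 with it. The authors' deposited table gives -0.49 (adjusted p 0.00529). The estimate was -0.63 in libraries 3 and 4 and -0.27 in libraries 1 and 2. A limma interaction term for such a difference gave ATP5E a Benjamini-Hochberg adjusted p of 0.999876, the same as for HIF1A. That term therefore tells nothing about ATP5E in particular. The gene SLMO2-ATP5E overlaps ATP5E on the same strand, with a mean of 0.0270 RPKM. ATP5EP2, a pseudogene left out of the members, could share reads with ATP5E.

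ATP5J2, now named ATP5MF, encodes subunit f beside the rotor ring (chr7:99055784-99063824, hg19, minus strand). It was at 106, 140, 389 and 350 RPKM in shCtrl 1 to 4 and at 84.4, 90.1, 225 and 279 in HIF1A-KD 1 to 4. It was lower in 4 of 4 pairs, yet both groups were several times higher in libraries 3 and 4, so the unblocked log2 change of -0.52 ± 0.54 (SE) had a limma Benjamini-Hochberg adjusted p of 0.941, beside 0.0733 with the block. With 1 library left out the unblocked estimate lay between -0.85 (without shCtrl 1) and -0.22 (without shCtrl 3). Its value in the authors' deposited table was -0.55 (adjusted p 0.00305). A read-through gene, ATP5J2-PTCD1, overlaps it on the same strand with a mean of 0.0118 RPKM. ATP5I and ATP5L, the subunits e and g that join synthase dimers, were at 0.27 and -0.02.

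**Figure D4:**
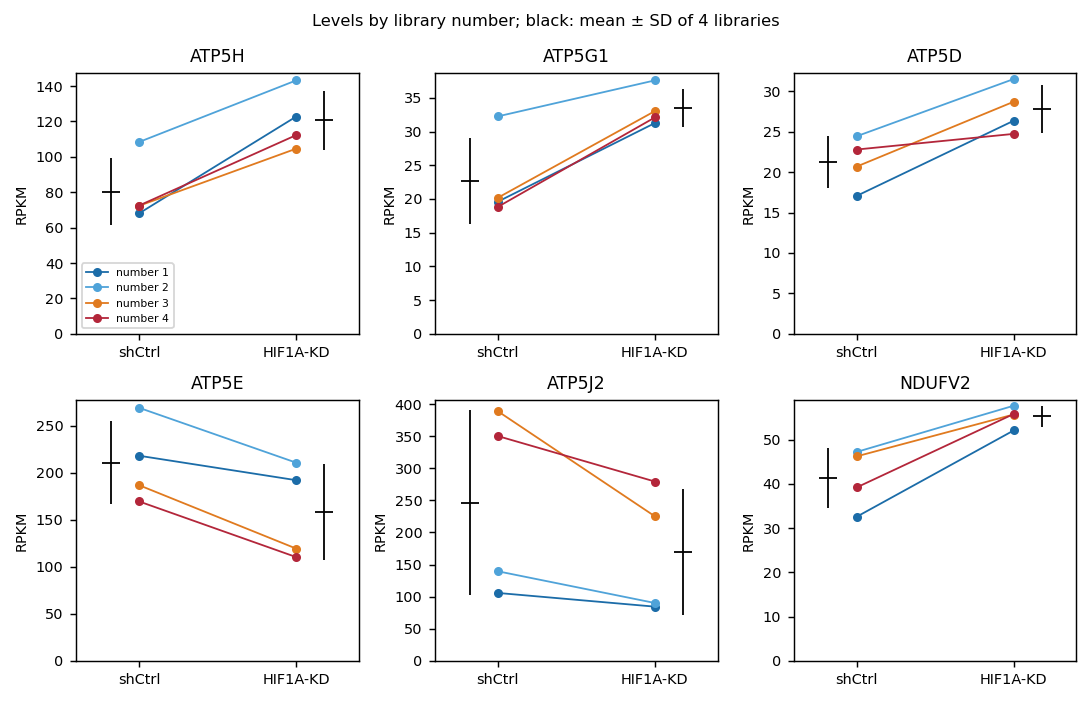
RPKM of 5 complex V subunits and of NDUFV2 of complex I in each library, with lines joining same-numbered libraries of shCtrl and HIF1A-KD and black bars for the mean ± SD of 4 libraries. All 4 lines slope up for ATP5H, ATP5G1, ATP5D and NDUFV2 and down for ATP5E and ATP5J2, and libraries 3 and 4 stand far above 1 and 2 for ATP5J2.

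The authors' deposited table gives an adjusted p under 0.05 to ATP5H, ATP5G1, ATP5E and ATP5J2. Of these only ATP5H passed limma's threshold here, with the block alone. The 250 bases before the RefSeq start (GRCh38.p14) are shown 5′ to 3′ for ATP5H and ATP5G1, with estimates above 0, and for ATP5E, with one below 0. ATP5J2 has no entry in the promoter table. Capitals mark matches on either strand to CATGCGC (core of the NRF1 motif), CCGGAAG (an ETS motif), ATGGCGG (a YY1 motif) or ACGTG and GCGTG (the hypoxia response core). ATP5H is at chr17:75046970-75047219 on the minus strand, ATP5G1 at chr17:48892537-48892786 on the plus strand and ATP5E at chr20:59032336-59032585 on the minus strand.
ATP5H: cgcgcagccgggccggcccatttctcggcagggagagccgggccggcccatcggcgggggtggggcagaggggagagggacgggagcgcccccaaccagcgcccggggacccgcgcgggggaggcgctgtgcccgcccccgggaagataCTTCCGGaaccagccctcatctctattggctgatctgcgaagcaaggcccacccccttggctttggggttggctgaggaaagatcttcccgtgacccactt
ATP5G1: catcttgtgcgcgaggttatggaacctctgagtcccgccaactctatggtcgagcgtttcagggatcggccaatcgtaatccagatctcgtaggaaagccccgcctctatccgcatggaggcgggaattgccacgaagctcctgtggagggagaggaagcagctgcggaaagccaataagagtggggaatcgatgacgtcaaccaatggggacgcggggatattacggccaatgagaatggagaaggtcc
ATP5E: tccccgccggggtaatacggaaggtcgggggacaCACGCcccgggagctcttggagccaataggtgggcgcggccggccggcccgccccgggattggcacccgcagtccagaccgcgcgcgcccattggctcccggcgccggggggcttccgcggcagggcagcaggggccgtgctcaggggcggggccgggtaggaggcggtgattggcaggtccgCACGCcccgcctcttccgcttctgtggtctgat
The ATP5H window holds 1 ETS match, the ATP5E window holds 2 matches to the hypoxia response core, both as CACGC, and the ATP5G1 window holds none of the 4 motifs.

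Over the 65 tested members with a RefSeq promoter entry, 12 windows held CATGCGC (18.5%, beside 3.96% of all 27305 promoter windows), 16 held CCGGAAG (24.6%, beside 8.82%), 5 held ATGGCGG (7.69%, beside 2.83%) and 38 held ACGTG or GCGTG (58.5%, beside 43.1%). NRF1, ETS-family and YY1 proteins are known regulators of nuclear genes for mitochondrial proteins. By complex, CATGCGC was found in 4 of 33 windows in complex I, 2 of 3 in complex II, 0 of 7 in complex III, 2 of 11 in complex IV and 4 of 11 in complex V. The ETS motif was found in 5 of 33, 2 of 3, 3 of 7, 4 of 11 and 2 of 11 in the same order. The 27305 windows include those of genes below the level for testing, while the 65 members were all tested, so the sets are not alike. These shares describe letters in a fixed window and were not tested.

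Subunit levels differed more across the unlabelled split of the libraries than between shCtrl and HIF1A-KD. Between libraries 3 and 4 and libraries 1 and 2 of the shCtrl group, members differed by -1.42 (NDUFB6) to 1.60 (ATP5J2 and UQCRB) on the log2 scale. The SD over the 78 members was 0.64 for the split in shCtrl and 0.62 in HIF1A-KD, with 2 libraries on each side, beside 0.18 for the knockdown changes, with 4 on each side. Over all tested genes the same SDs were 0.76, 0.80 and 0.48, so a split wider than the knockdown changes was not particular to the subunits. The same members moved in both groups: 69 of 78 had the same sign, beside 81.9% of all tested genes, and the Pearson correlation of the split in shCtrl with that in HIF1A-KD was 0.95 over 78 members and 0.74 over all tested genes. It is given as a description across genes, which are not independent replicates.

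In both groups, 8 members (10.3%, beside 7.20% of all tested genes) differed by more than 2-fold the same way across the split. UQCRB, a small complex III subunit, was at 12.3 and 14.9 RPKM in shCtrl 1 and 2, 42.7 and 39.7 in shCtrl 3 and 4, 15.7 and 17.7 in HIF1A-KD 1 and 2, and 45.3 and 51.7 in HIF1A-KD 3 and 4. ATP5J2 and ATP5J of complex V were also higher in libraries 3 and 4. NDUFA2 and NDUFB2 of complex I, CYC1 of complex III and COX7C and COX8A of complex IV were lower there. COX7C, the most abundant of these, was at 304 and 343 RPKM in shCtrl 1 and 2 and 140 and 134 in shCtrl 3 and 4. Within complex III, UQCRB and CYC1 thus lay on opposite sides of the split. Within libraries 1 and 2 the median knockdown changes of complexes I to V were 0.18, 0.11, 0.24, 0.14 and 0.19, and within libraries 3 and 4 they were 0.10, 0.09, 0.10, 0.07 and 0.10.

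**Figure D5:**
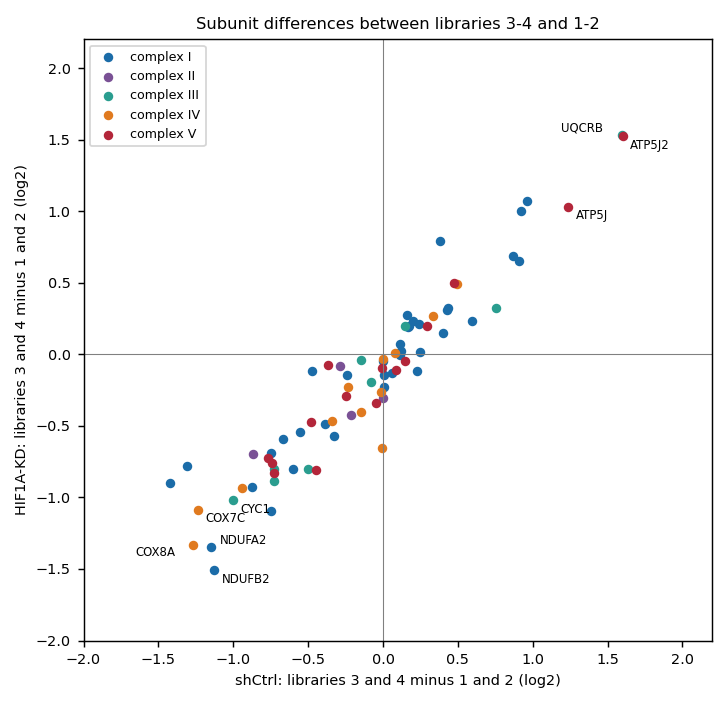
Difference between libraries 3 and 4 and libraries 1 and 2 for 77 of the 78 tested subunits, on the log2 scale, in shCtrl (x axis) and HIF1A-KD (y axis), coloured by complex; the 8 members past 2-fold in both groups are named. The points lie along the diagonal (r = 0.95 over the 78), with UQCRB and ATP5J2 at the upper end and COX8A, NDUFA2 and NDUFB2 near the lower end.

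The other genes of the pathway were read from lists of assembly factors, electron carriers, citric acid cycle enzymes and regulators. None of them passed limma's Benjamini-Hochberg threshold of 0.05 without or with the block. Over all tested genes, 58.7% of estimates were above 0, and 7.80% without and 19.6% with the block had an unadjusted p under 0.05. Of 49 tested assembly factors, 28 (57.1%) had estimates above 0, with a median of 0.05, and 2 had an unadjusted p under 0.05 without the block and 11 with it. The complex II factors lay above 0 (4 of 4, median 0.44), and the complex III factors below it (0 of 6 above, median -0.21). The most abundant of them, ATPIF1, listed with complex V, was at 54.6 ± 22.2 RPKM in shCtrl and 63.3 ± 27.7 in HIF1A-KD (SD, n = 4 each). The copper chaperone COX17 came next, at 58.4 ± 2.61 RPKM in shCtrl and 57.9 ± 7.07 in HIF1A-KD (SD, n = 4 each). Of 13 citric acid cycle enzymes, 9 lay above 0 with a median of 0.09, and the most abundant, malate dehydrogenase MDH2, was at 62.3 ± 3.09 and 63.6 ± 6.08 RPKM. Of 13 tested regulators of mitochondrial gene expression, 6 lay above 0 with a median of -0.06, and the most abundant, YY1, was at 28.4 ± 3.15 and 31.7 ± 2.75 RPKM. The coactivator gene PPARGC1A was at or below 0.00694 RPKM in every library.

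Mobile electron carriers and the enzymes of coenzyme Q synthesis had estimates above 0 for 14 of 16 genes, with a median of 0.27. The most abundant of them, ETFA, was at 49.1 ± 5.02 RPKM in shCtrl and 41.3 ± 5.62 in HIF1A-KD (SD, n = 4 each), a log2 change of -0.25. Its partner ETFB, which with ETFA forms the flavoprotein that carries electrons from fatty acid oxidation to coenzyme Q, was picked out after its values were seen. ETFB was at 6.71, 13, 9.19 and 15.6 RPKM in shCtrl 1 to 4 and at 23.8, 25.2, 26.9 and 22.6 in HIF1A-KD 1 to 4. All HIF1A-KD libraries lay well above all shCtrl libraries, with a log2 change of 1.21 ± 0.26 (SE) and a limma Benjamini-Hochberg adjusted p of 0.175 without a block and 0.0554 with it. In the authors' deposited table ETFB had a moderated log2 change of 0.99 and an adjusted p of 4.07e-05, and ETFA one of -0.30 and 0.219.

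Among 7 tested genes through which HIF is known to act on mitochondria, NDUFA4L2 included, 1 lay above 0 and the median was -0.16. The most abundant, HIGD1A, which is known to bind complex IV in low oxygen, was at 104 ± 23.6 RPKM in shCtrl and 102 ± 22.3 in HIF1A-KD (SD, n = 4 each). BNIP3L, a receptor for removal of mitochondria by autophagy that was picked out after its values were seen, was at 113, 62, 74.7 and 68.5 RPKM in shCtrl 1 to 4 and at 28.5, 36.7, 38.3 and 62.2 in HIF1A-KD 1 to 4. Only shCtrl 2 and HIF1A-KD 4 touched, and the log2 change was -0.96 ± 0.28 (SE), with a limma Benjamini-Hochberg adjusted p of 0.341 without a block and 0.157 with it. BNIP3L in the authors' deposited table was at -0.82 with an adjusted p of 0.00824.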

How the data were processed

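RNA-seq gene values were analysed in 8 libraries, grouped by their titles. The deposited expression table is named for counts but holds RPKM, scaled by the authors to gene length and total reads. Multiplied by gene length, the values of each library came out as whole multiples of 1 step within 0.01 read for 100% of genes with a readable length (597 of the genes had none, no member among them). The steps gave the implied read totals, which set the counting precision. A second deposited table gives the authors' comparison as a moderated log2 change with p-values, and the sources used here do not name its tool. The authors used HTSeq 0.6.1, Picard 1.129, SAMtools 1.3.1, Bowtie2 2.2.3.0, TopHat2 2.0.13, FastQC 0.11.5 and bcl2fastq, per the submitters' processing notes, and gene positions in the deposited table are those of hg19.

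From these values limma 3.58.1 (R 4.3.3, trend and robust moderation, two-sided) was fitted on log2(RPKM + 0.1) for all genes that reached 0.5 RPKM in 4 or more libraries, with Benjamini-Hochberg adjustment over all of them and a threshold of 0.05, without a replicate block. It was checked on simulated data. The simulated libraries were independent and held no library split, so this check does not measure error or power in these libraries. A pseudocount understates changes of low genes. The library number was used as a block in a second fit. Deviations of same-numbered libraries from their group means correlated at 0.754, 0.730, 0.252 and 0.257 for numbers 1 to 4. The values of 0.754 and 0.730 exceeded the correlations of those libraries with any other number. shCtrl 3 and 4 correlated more with each other's numbers (0.463 and 0.613), so the data do not favour the pairing used for them. Their pairing rests on the numbers alone, and no label explains these. A block with numbers 3 and 4 exchanged was not run. How far the blocked results and the counts over same-numbered pairs depend on this pairing was therefore not tested. Alternatives were the scaling, pseudocount, filter, limma-voom on recovered reads, the library split as a term or taken apart, and leaving out libraries.

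The members and gene lists were chosen with earlier results of these data known. Named subunits are those past the threshold in either fit, the most abundant and the 2 highest and 2 lowest changes of each complex, core catalytic subunits and isoform families, and in each other list the genes past the threshold or else the most abundant. Others are said to be picked after their values were seen, apart from members listed in counts or given for a library that stood apart. Values of 1 member are not reported here, though counts and medians include it. Of the members, 23 overlap another gene of the table, 9 of them one with a mean of at least 1 RPKM. Promoter sequences are from RefSeq (GRCh38.p14), whose entries matched 65 tested members by symbol.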

Additional observations from a re-analysis of the deposited data

Results flagged for a closer look

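In 5 of the 154 groups of 4 libraries formed by 77 tested subunits (3.25%), 1 library stood apart from the other 3 by Dixon's criterion at the 95% level. Independent draws from 1 normal distribution reach that level in about 1 in 20 groups. The libraries are split by number, so they are not such draws, and the 3.25% cannot be set against that rate. ATP5H in shCtrl 2 was at 108 RPKM, beside 68.0 to 72.5 in the other shCtrl libraries. ATP5G1 in the same library was at 32.2 RPKM, beside 18.8 to 20.2. For both genes HIF1A-KD 2 was also the highest of its group, and without shCtrl 2 the log2 changes of ATP5H and ATP5G1 were 0.76 and 0.77, in place of 0.60 and 0.59. NDUFA1, a small membrane subunit of complex I, was low in shCtrl 1 at 65.7 RPKM, beside 89.5 to 92.1, and COX5B was low in the same library at 138 RPKM, beside 198 to 210. In HIF1A-KD 4, NDUFB7 was at 80.8 RPKM, beside 107 to 110.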

How the results depend on the processing

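Over all tested genes 5 passed without a block. The count was 8 with median-of-ratios scaling (3 higher and 5 lower, in place of 3 and 2), 3 with limma-voom, 3 with a pseudocount of 0.01 or of 1, 1 without a filter on low values, 0 in libraries 1 and 2 alone, 102 with the library split as a term, and 0 to 3 when any 1 library was left out. With the replicate block it was 218, with the block and median-of-ratios scaling 257 (chosen after seeing the data), and with the block it was 33 without number 1, 1 without number 2, 195 without number 3 and 182 without number 4. The number of subunits called was 1 with the replicate block and 0 in every other setting run, so the block changed no other member's call. The median of complex III, 0.19, was 0.10 in libraries 3 and 4 alone, and lay between 0.0884 (without HIF1A-KD 2) and 0.22 with 1 library left out. Of 117 recomputed complex medians, 115 stayed within 1 SD of the 4 pair medians, and 2, both of complex II, lay below 0. This is a weak measure, because the replicate block and the library split as a term cannot move the medians with equal groups. The SD was also wide, at 0.14 in complex II and 0.08 in complex IV, beside medians of 0.08 and 0.09. For 37 single subunits recomputed in 851 values, 62 changed sign, none of them a call. Precision is limited by 4 libraries a group and by the split between them. The causes of these differences between settings were not tested.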

Other observations

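Several subunits and subunit-linked genes carry names that the choice of members by symbol does not reach. NDUFAB1, the acyl carrier protein that is part of complex I, was at 57.9 ± 19.9 RPKM in shCtrl and 56.9 ± 22.2 in HIF1A-KD (SD, n = 4 each). USMG5 and C14orf2, small subunits of the ATP synthase, were at 71.9 ± 4.08 and 64.8 ± 7.73 RPKM and at 66.3 ± 16.8 and 74.3 ± 19.7 RPKM, in the same order of groups. USMG5 was lower in HIF1A-KD in 4 of 4 pairs and C14orf2 higher in 4 of 4, with log2 changes of -0.16 and 0.16. Neither passed limma's Benjamini-Hochberg threshold without or with the block.

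Among genes picked out after their values were seen, UQCC1, an assembly factor of complex III, was at 29.7, 10.1, 6.49 and 8.57 RPKM in shCtrl 1 to 4 and at 12.6, 7.36, 5.13 and 3.26 in HIF1A-KD 1 to 4, lower in 4 of 4 pairs with overlapping groups. C6orf57, an assembly factor of complex II now named SDHAF4, was at 2.01, 3.17, 0.763 and 3.47 RPKM in shCtrl and at 4.55, 4.14, 3.75 and 5.90 in HIF1A-KD, without overlap. IDH3B, a subunit of isocitrate dehydrogenase in the citric acid cycle, was at 34.2, 36.1, 33.3 and 29.1 RPKM in shCtrl and at 28.8, 26.8, 25.6 and 21.5 in HIF1A-KD, also without overlap. Their limma Benjamini-Hochberg adjusted p-values were 0.803, 0.536 and 0.596 without a block and 0.102, 0.123 and 0.0951 with it. In the authors' deposited table UQCC1 had a moderated log2 change of -0.81 and an adjusted p of 0.00155, C6orf57 one of 0.63 and 0.177, and IDH3B one of -0.43 and 0.00193.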
